A study of Mus musculus with 22 samples.

Results

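The genes described here were the Wnt5a co-receptors Ror1, Ror2 and Ryk and the planar cell polarity genes Vangl1, Vangl2, Celsr1, Celsr2, Prickle1, Prickle2 and Dvl1. They were taken by name, with earlier results of these data known, and were 10 of the 26202 gene symbols in the count table. Mouse tracheas were sequenced whole on embryonic day E11.5 and as sorted cell populations on E13.5. At E11.5, 5 control libraries came from Wnt5a f/f embryos, in which the gene carries recombination sites but is intact, and 4 mutant libraries came from Dermo1Cre; Wnt5a f/f embryos, in which a Cre recombinase expressed from the Dermo1 locus acts in mesenchyme. Each of these libraries pooled 5 dissociated tracheas and held epithelium and mesenchyme together. At E13.5 every sorted group carried the smooth muscle reporter γSMAeGFP, and 5 tracheas of a litter were pooled per sort. The sort gave 2 libraries of epithelium (EpCAM positive), 2 of muscle (GFP positive), 2 of control chondroblasts and 3 of mutant chondroblasts, the last 2 groups being live cells negative for both labels. Each of the 2 dates in the column names held 1 library of each control population, all 3 mutant libraries had the later date, and the names of mutants B and C hold the same number, so that these libraries may not be independent. Mutant chondroblasts were Notum 150/150, homozygous in every cell for a loss-of-function allele of Notum, the enzyme that inactivates Wnt ligands by removing their lipid. Sorted controls were labelled Bmp4 f/f or Notum 300/300, and the table does not show which library had which of these genotypes.

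Wnt5a acts mainly through the branch of Wnt signalling that does not use β-catenin. It binds Ror1 and Ror2, single-pass receptors with a Frizzled-like extracellular domain and a kinase domain, and Ryk, a Wnt receptor with an inactive kinase domain. The planar polarity core is the set of proteins that orients cells within the plane of a tissue: the multi-pass membrane protein Vangl with its cytoplasmic partner Prickle on 1 side of a cell, Frizzled with the scaffold Dishevelled (Dvl) on the other, and the atypical cadherin Celsr bridging neighbouring cells from both. In the trachea this branch is known for the elongation of the tube and the arrangement of the smooth muscle and of the mesenchymal condensations that form cartilage.

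On the mouse build mm10 (GRCm38), the co-receptors lie at chr4:100095791-100444806 on the plus strand (Ror1), chr13:53109317-53286124 on the minus strand (Ror2) and chr9:102834920-102908307 on the plus strand (Ryk). Vangl1 lies at chr3:102153583-102204744, Vangl2 at chr1:172000960-172027318, Celsr1 at chr15:85898758-86034223, Celsr2 at chr3:108390848-108416069, Prickle1 at chr15:93499111-93596266 and Prickle2 at chr6:92370891-92706334, all on the minus strand, and Dvl1 at chr4:155847402-155859303 on the plus strand. The table held 1 to 4 entries per gene, which were summed, and for 10 of the 10 genes the number of entries was the number of curated RefSeq transcripts. Exons of Vangl1 overlap those of Gm16160 and exons of Dvl1 overlap those of Tas1r3 on the opposite strand, and the library kit marks no strand, so reads of these overlaps cannot be told apart. Ror1 and Ror2, 1 of the pairs of paralogs among the 10 genes, had levels that followed different orders across the groups. The 250 bases before the RefSeq start of each are shown as an example, 5′ to 3′ on the gene's strand. The GC box GGGCGG, read on both strands, is in capitals. The windows are chr4:100095541-100095790 for Ror1 and chr13:53286125-53286374 for Ror2, copied from the RefSeq promoter table of GRCm38.p6, which held 8 of the 10 genes.
Ror1: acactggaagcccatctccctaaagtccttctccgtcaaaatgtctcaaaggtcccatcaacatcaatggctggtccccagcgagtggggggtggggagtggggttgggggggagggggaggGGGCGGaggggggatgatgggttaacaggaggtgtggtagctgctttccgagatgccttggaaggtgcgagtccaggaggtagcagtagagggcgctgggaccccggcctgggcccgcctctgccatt
Ror2: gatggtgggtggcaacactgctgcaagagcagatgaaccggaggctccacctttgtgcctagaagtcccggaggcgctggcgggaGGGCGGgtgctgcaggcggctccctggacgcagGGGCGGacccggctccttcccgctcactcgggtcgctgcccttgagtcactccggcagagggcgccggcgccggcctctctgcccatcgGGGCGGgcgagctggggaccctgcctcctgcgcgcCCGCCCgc
The Ror1 window held 1 GC box, 8 CG dinucleotides and no E-box (CANNTG), and the Ror2 window held 4 GC boxes, 24 CG dinucleotides and 1 E-box. Of 32851 promoter windows of this length, 32.7% held a GC box and 66.2% an E-box. These letters describe the windows and were not tied to the measured levels.

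Total counts ran from 6880660 to 21678177 per library, so that a floor of 3 counts was worth 0.436 to 0.138 CPM (counts per 1000000), and this floor covers counting error only. The sorted libraries matched their labels: the summed level of the epithelial markers was 3466 and 4077 CPM in epithelium and 16.9 to 45.4 CPM in the other sorted libraries, and that of the smooth muscle markers was 11080 and 14154 CPM in muscle and 16.1 to 116 CPM elsewhere in the sort. Epcam and Cdh1 were at 522 to 895 CPM in epithelium and at most 8.47 CPM in the other sorted libraries, Myh11 and Actg2 at 1590 to 2154 CPM in muscle and at most 12.1 CPM elsewhere, and Col2a1 at 912 to 1780 CPM in chondroblasts and at most 697 CPM elsewhere. Sox9 marked the chondroblasts less sharply, since control A had 220.0 CPM and muscle 206 and 457 CPM. Epithelium A stood apart, since 58 of 7304 genes with at least 10 CPM in all other libraries had under 3 counts there, against at most 2 such genes in any other library. Its values for Ror2 and Dvl1 rested on 2 counts each and that for Prickle2 on 0 counts, so the differences of the 10 genes between epithelium and the mean of the other populations are given with and without it. Summed macrophage markers were at 238.8 CPM in epithelium B and 0.262 CPM in epithelium A. They were at 203 and 114 CPM in control chondroblasts A and B and 2.84 and 72.5 CPM in muscle A and B. Differences of epithelium without epithelium A rest on epithelium B alone, and the part of macrophages in them was not tested. The targeted genes did not separate the mutants by gene-level counts. Wnt5a was at 46.5, 78.6, 87.7 and 127 CPM in the libraries labelled Wnt5a mutant (A to D) and at 88.4, 162, 84.6, 86.9 and 57.7 CPM in the 5 controls. Notum was at 34.02, 35.6 and 13.9 CPM in the libraries labelled Notum mutant and at 13.8 and 86.1 CPM in control chondroblasts. Both pairs of groups overlapped, and gene-level counts do not show whether the reads fell outside the altered part of either gene. In all of these bulk libraries, fewer cells of a type and less RNA per cell cannot be told apart.

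**Figure D1:**
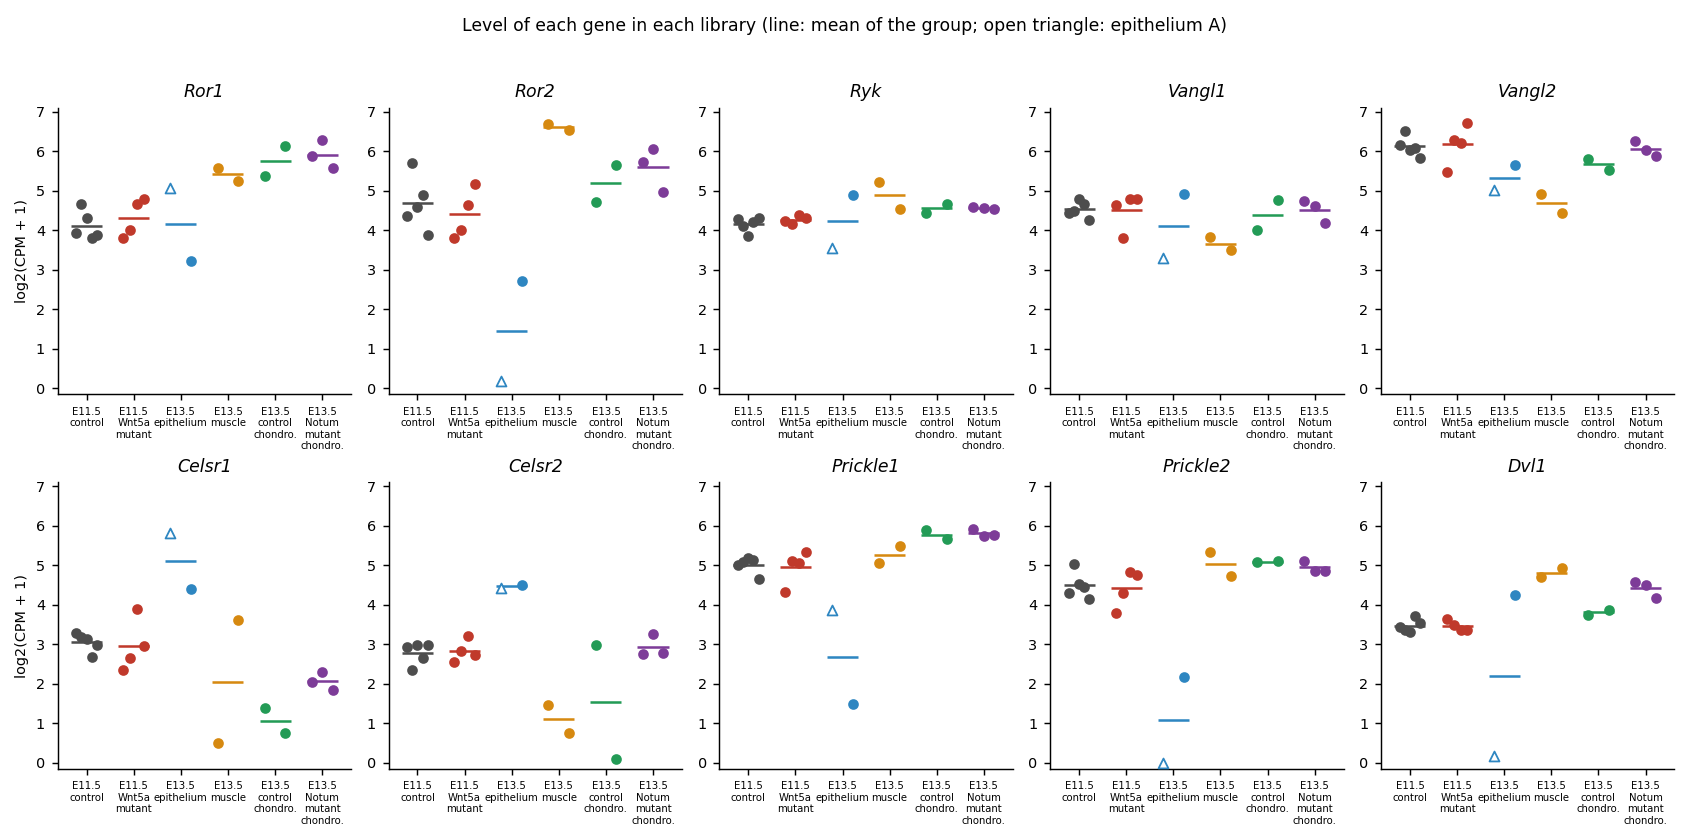
Level of each of the 10 genes in each of the 18 libraries as log2(CPM + 1), with 1 point per library, a line at the mean of those values in each group, and epithelium A drawn as an open triangle. Ror2, Prickle1 and Prickle2 were lowest and Celsr1 and Celsr2 highest in the 2 epithelium libraries, while muscle had the highest Ror2 and Dvl1 and the lowest Vangl2.

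Among the sorted control populations at E13.5, the mesenchymal cells had more Ror2, Prickle1 and Prickle2 and the epithelium more Celsr1 and Celsr2. For these 5 genes and Ror1, 6 of the 10, the libraries of epithelium did not overlap those of the other populations, where 34.2% of all genes did not. Epithelium was set against the mean of muscle and control chondroblasts in edgeR by its quasi-likelihood test, and p-values were adjusted over 13687 genes by the Benjamini-Hochberg method. A gene was tested if over 50% of the libraries of a group had 1 CPM or more. In this fit, which also gave the pairwise comparisons, Celsr1 and Celsr2 met that filter only through epithelium. Ror2 and Prickle2 met it only through the other populations. The filter thus favoured the directions found for these genes. None of the 10 genes passed an adjusted p under 0.05, which 5.14% of all genes did. At the study's thresholds, an unadjusted p under 0.05 and a fold change over 1.5, 5 of the 10 passed, 2 higher and 3 lower in epithelium, against 18.8% of all genes. Here and below these are the p and fold parts of the study's rule. Its cut on FPKM, a level corrected for transcript length, was not applied. The median log2 difference of the 10 genes was -0.70, and that of all genes tested was -0.02. DESeq2 put 4 of the 10 genes past the adjusted threshold, where 2035 of 13687 genes passed. With all 18 libraries in 1 edgeR fit 5 passed it, where 3898 of 15331 genes did. Ror2 was past the study's thresholds in each of 15 alternatives. Leaving out either muscle library lost Celsr2 and Prickle2, leaving out chondroblast A lost Prickle1 and Prickle2, and leaving out chondroblast B lost Celsr1 and Prickle2. The dissociation response, 8 stress and early genes, also moved with this comparison: its summed level was 10398 and 14110 CPM in epithelium and 3173 to 7929 CPM in the other sorted control libraries, with 5 of 8 genes higher at the study's thresholds and 4 past the adjusted one. Its part in the differences of the 10 genes was not tested. With 2 libraries a group the spread is poorly estimated, and p-values measure the spread between these libraries only.

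Of the co-receptors, Ror2 separated the 3 populations most widely. It was at 101 and 91.2 CPM in muscle A and B, 25.4 and 49.5 CPM in control chondroblasts A and B, and 0.131 and 5.56 CPM in epithelium A and B. Muscle was above both chondroblast libraries, and both were above epithelium. The log2 difference of epithelium from the mean of the others was -4.35 (SE 1.25), a 20.4-fold lower level, with an unadjusted p of 0.0118 and an adjusted p of 0.117. Without epithelium A it was -3.41 (adjusted p = 0.0516), and over 15 alternatives it ran from -8.77 to -3.41, with 4 of them past the adjusted threshold. The lower end of that range comes from epithelium A alone, where Ror2 had 2 counts, and is no measure of the size. Against muscle alone the difference was -5.04 (SE 1.35, adjusted p = 0.113), or -4.10 without epithelium A (adjusted p = 0.0425), and against chondroblasts alone -3.66 (SE 1.27, adjusted p = 0.222), or -2.72 without it (adjusted p = 0.111). The muscle libraries also held skeletal muscle markers, at a summed 2585 CPM in A and 668 CPM in B against 38.4 to 109 CPM in the other sorted libraries, and the part of those cells in the levels of Ror2, Dvl1 and Vangl2 in muscle was not tested. Chondroblasts were lower than muscle by -1.38 (SE 1.15) on the log2 scale, which did not pass the test (adjusted p = 1).

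Ror1, the paralog of Ror2, was less uneven. Its level was 46.5 and 37.2 CPM in muscle, 40.1 and 69.1 CPM in control chondroblasts and 32.6 and 8.34 CPM in epithelium. Both epithelium libraries were below all 4 mesenchymal ones, but epithelium A was close to muscle B and far above epithelium B. The log2 difference from the mean of the others was -1.22 (SE 0.62, adjusted p = 0.338), and without epithelium A it was -2.50 (adjusted p = 0.0974). Ryk was at 36.3 and 22.2 CPM in muscle, 20.7 and 24.4 CPM in chondroblasts and 10.8 and 28.6 CPM in epithelium, so that every pair of populations overlapped. Its log2 difference for epithelium was -0.37 (SE 0.58, adjusted p = 0.772), and 0.18 without epithelium A.

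The membrane proteins of the core divided into a Celsr pair that was higher in epithelium and a Vangl pair whose libraries overlapped between epithelium and chondroblasts. Celsr1, which links polarity complexes of neighbouring cells, was at 55.05 and 20.02 CPM in epithelium, 0.415 and 11.2 CPM in muscle and 1.63 and 0.673 CPM in control chondroblasts. The 2 epithelium libraries were the highest of all 18, and muscle B was far above muscle A. The summed epithelial markers were 45.4 CPM in muscle B and 45.2 CPM in muscle A, with 2 and 0 of the 8 markers at 0 counts. The part of epithelial cells in the Celsr1 level of muscle was not tested. The log2 difference for epithelium was 3.86 (SE 1.18, unadjusted p = 0.0155, adjusted p = 0.135), a 14.5-fold higher level. It fell to 2.97 without epithelium A, with an unadjusted p of 0.0902, so the call at the study's thresholds rested on that library, and over 15 alternatives it ran from 2.97 to 5.75. Celsr2 was at 20.7 and 21.6 CPM in epithelium, 1.78 and 0.694 CPM in muscle and 6.85 and 0.0747 CPM in chondroblasts. Epithelium again had the 2 highest values of all 18 libraries, and these 2 were close together, whereas chondroblast B held a single count and chondroblast A was well above it. The log2 difference was 3.36 (SE 1.38, unadjusted p = 0.0479, adjusted p = 0.243). It was 3.41 without epithelium A and 3.31 without epithelium B, with unadjusted p-values of 0.0873 and 0.0992, so this call was lost with either library. Over 15 alternatives it ran from 2.88 to 6.06, so its size is poorly fixed.

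Vangl2, the membrane anchor of Prickle and a target of Wnt5a and Ror2 signalling, was at 54.7 and 45.3 CPM in chondroblasts, 31.1 and 48.9 CPM in epithelium and 29.3 and 20.8 CPM in muscle. Muscle had the 2 lowest values of all 18 libraries. Chondroblasts were above muscle by 0.98 on the log2 scale (SE 0.44, unadjusted p = 0.0644, adjusted p = 0.899), and epithelium differed from the mean of both by 0.19 (SE 0.37, adjusted p = 0.813), or by 0.49 without epithelium A. Vangl1, its paralog, was at 15.02 and 26.3 CPM in chondroblasts, 8.89 and 29.2 CPM in epithelium and 13.2 and 10.3 CPM in muscle. Chondroblasts were again above muscle in both libraries, by 0.80 (SE 0.80, adjusted p = 1), and the epithelium libraries lay on either side of all the others, with a difference from their mean of 0.31 (SE 0.68), or 0.93 without epithelium A.

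Of the cytoplasmic partners, both Prickle genes were lower in epithelium and Dvl1 was too uneven between the epithelium libraries to place. Prickle1 was at 32.2 and 44.1 CPM in muscle, 58.1 and 50 CPM in chondroblasts and 13.7 and 1.82 CPM in epithelium. The 5 control and mutant chondroblast libraries had the 5 highest Prickle1 levels of the 18 libraries, and both epithelium libraries were below every other. The log2 difference for epithelium was -2.54 (SE 0.84, unadjusted p = 0.0213, adjusted p = 0.161), and it was -4.61 (adjusted p = 0.0225) without epithelium A and -1.73 (adjusted p = 0.0640) without epithelium B. Prickle2 was at 39.5 and 25.6 CPM in muscle, 33.00 and 33.3 CPM in chondroblasts and 0 and 3.54 CPM in epithelium. It was lowest in epithelium, and the 2 mesenchymal populations overlapped and differed by 0.0062 on the log2 scale, with an error (SE 1.43) too wide to call them alike. The log2 difference for epithelium was -4.17 (SE 1.57, unadjusted p = 0.0356, adjusted p = 0.211), and without epithelium A, where Prickle2 had 0 counts, it was -3.19 (adjusted p = 0.0686). Dvl1, the Dishevelled scaffold that both Wnt branches share, was at 24.9 and 29.5 CPM in muscle, 12.5 and 13.6 CPM in chondroblasts and 0.131 and 17.9 CPM in epithelium. The 2 muscle libraries had the highest Dvl1 of all 18, and the chondroblasts were below them by -1.08 (SE 1.58, adjusted p = 1). In epithelium the difference was -1.04 (SE 1.42, adjusted p = 0.735), and without epithelium A it was -0.05.

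The pairwise comparisons share these libraries. Libraries did not overlap for 6 of the 10 genes against chondroblasts, 8 against muscle and 5 between chondroblasts and muscle, where 52.3%, 51.9% and 40.3% of all genes did not. Against control chondroblasts, 0 of the 10 genes passed the adjusted threshold, where 2.74% of all genes did, and 4 passed the study's thresholds (Celsr1 higher, Ror2, Prickle1 and Prickle2 lower in epithelium), where 15.8% did. Without epithelium A, 1 library of epithelium was left, and Ror1 took the place of Celsr1 among the latter. Without chondroblast B, 0 of the 10 passed the latter, and without either muscle library or chondroblast A 2 did. Against muscle, 0 passed the adjusted threshold and 3 the study's thresholds (Ror2, Prickle1 and Prickle2, lower in epithelium), where 3.58% and 17.6% of all genes did, and without muscle A only Ror2 passed the latter. Without epithelium A, 1 library of epithelium was left, and a count of genes passing is not given. Between control chondroblasts and muscle, 0 of the 10 genes passed either threshold, where 0.132% and 5.47% of all genes did. DESeq2 put 1 of the 10 past the study's thresholds in that last comparison, where 461 genes were higher and 510 lower of 13687. With edgeR on all 18 libraries 2 passed, where 1289 genes were higher and 1096 lower of 15331.

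**Figure D2:**
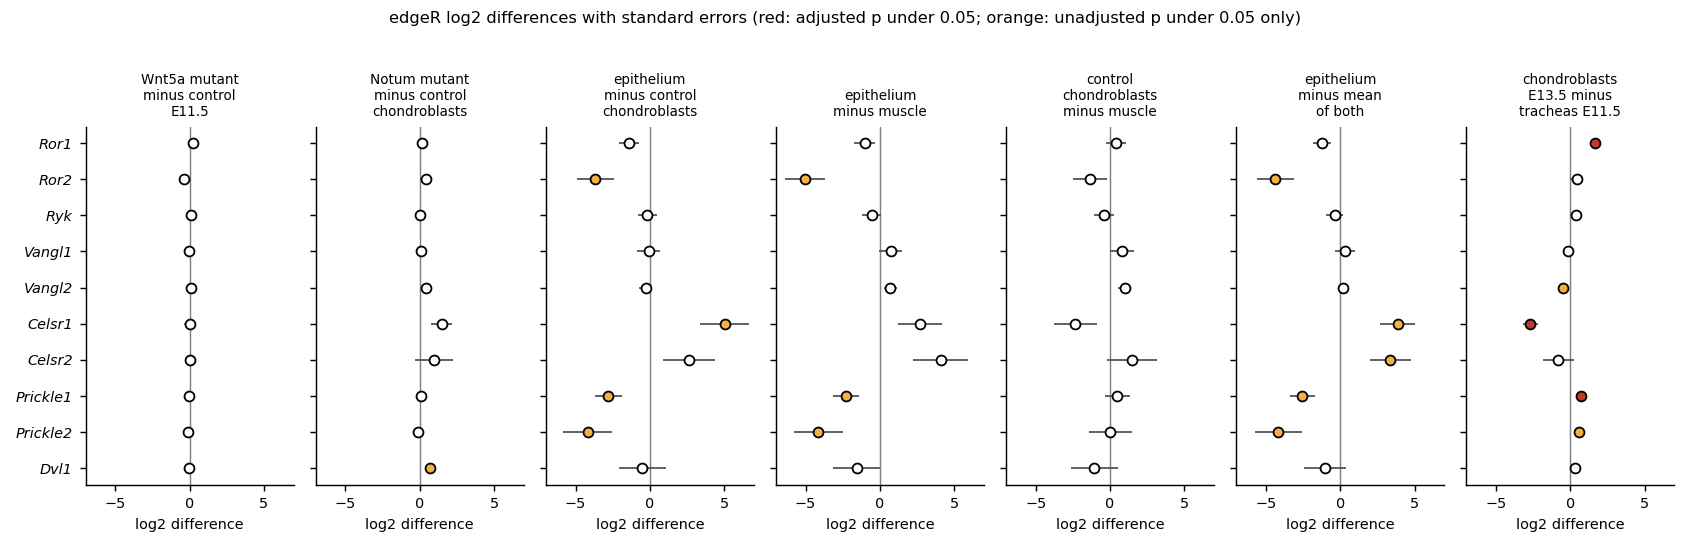
Fitted log2 difference of each gene, first group minus second, in each of the 7 comparisons, with bars of 1 standard error from edgeR. Filled red points passed an adjusted p under 0.05 and orange points an unadjusted p under 0.05 only. Points of the epithelium comparisons had wide errors, and only the comparison of stages held red points (Ror1, Celsr1 and Prickle1).

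The other genes of the branch were read from lists set out beside the 10 genes. Of 4 ligands of the branch, Wnt5a was lower in epithelium than in the mean of the other populations by -2.55 (SE 0.49, adjusted p = 0.0397), and Wnt11 was lower (-1.99, SE 0.71) and Wnt4 higher (4.35, SE 1.20) at the study's thresholds only. Wnt5a was at 17.6 and 41.96 CPM in epithelium, 83.4 and 181 CPM in muscle and 238 and 237 CPM in chondroblasts, so the ligand and the co-receptor Ror2 were both low in epithelium. Of 16 other planar polarity genes, 1 passed the study's thresholds (Celsr3, the third Celsr gene, lower in epithelium, at 0 counts there). Its mean was 0.245 CPM in muscle and 3.96 CPM in control chondroblasts, so it was near the floor in muscle too. Celsr3 met the filter for testing only through the chondroblasts. Of 12 calcium branch effectors, 11 were tested, and 4 of these were lower at the study's thresholds. Nfatc4, a transcription factor activated by calcineurin, passed the adjustment (-1.54, SE 0.26, adjusted p = 0.0265), and Camk2d, a calcium-dependent kinase, came close to it (-1.72, SE 0.37, adjusted p = 0.0535). Camk2a, another kinase of that family, was at 0 and 0.0479 CPM in epithelium, 0.593 and 1.26 CPM in muscle and 2.25 and 3.66 CPM in chondroblasts. Summed neural and glial markers were at 210 and 321 CPM in control chondroblasts A and B. They were at 18.5 and 152 CPM in muscle A and B and 127 and 46.3 CPM in epithelium A and B. The part of such cells in the levels of Celsr3 and Camk2a was not tested. Against chondroblasts alone, Wnt5a passed the adjustment (adjusted p = 0.0463), and against muscle alone Camk2d and Nfatc4 did (adjusted p = 0.0288 and 0.0353), while Prkca, a protein kinase C, passed the study's thresholds in both (-2.51, SE 0.99, and -2.67, SE 1.00). Between chondroblasts and muscle, Camk2d (-1.69, SE 0.40) and Wnt4 were lower in chondroblasts at the study's thresholds and neither passed the adjustment. Without epithelium A none of the pathway genes named here passed the adjustment in these comparisons, with Wnt5a at -2.05 (adjusted p = 0.112) and Nfatc4 at -1.38 (adjusted p = 0.0951) against the mean.

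In Wnt5a mutant tracheas at E11.5, none of the 10 genes differed from controls by either threshold. An adjusted p under 0.05 was reached by 0 of the 10, where 0.0136% of all genes passed, and the study's thresholds by 0 of the 10, where 3.72% passed. At an unadjusted p under 0.05 alone, 672 of 14663 genes and none of the 10 passed in edgeR, and DESeq2 called 40 genes past the adjusted threshold and 0 of the 10. The 10 adjusted p-values were all 0.9996 and the control and mutant libraries overlapped for each gene, where 1.26% of all genes did not overlap. The median log2 difference of the 10 genes was -0.01, against -0.02 for all genes tested.

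Ror2 showed the largest difference of the 10, with levels of 19.5, 51.5, 23.2, 28.8 and 13.7 CPM across the control libraries A to E and of 12.9, 15.2, 23.9 and 34.7 CPM across the mutant libraries A to D. Control B was the highest of all 9 and mutant A the lowest. The log2 difference was -0.36 (SE 0.38), and with the column number as a replicate block it was -0.52 (SE 0.22, unadjusted p = 0.0452, adjusted p = 0.957), a fold change under 1.5. Ror1 was at 14.1, 24.6, 18.7, 13.1 and 13.6 CPM in controls and 12.9, 15.1, 24.3 and 26.9 CPM in mutants, a log2 difference of 0.21 (SE 0.27). In the fit without the block the 2 receptors thus had differences of opposite sign, each smaller than its standard error. Ryk was at 18.4, 16.3, 13.4, 17.3 and 18.7 CPM in controls and 17.7, 16.95, 19.7 and 18.9 CPM in mutants, the narrowest ranges of the 3 receptors, and differed by 0.09 (SE 0.17). The core genes differed by -0.08 to 0.07 with standard errors of 0.19 to 0.34. Vangl2 was at 70.6, 90.5, 64.7, 67.00 and 55.5 CPM in controls and 43.8, 77.5, 73.2 and 105 CPM in mutants. Celsr1 was at 8.78, 8.12, 7.76, 5.42 and 6.94 CPM in controls and 4.09, 5.28, 13.8 and 6.80 CPM in mutants, where mutant C lay above all 5 controls. Prickle1 was at 31.5, 33.2, 35.2, 34.3 and 24.2 CPM in controls and 19.2, 33.7, 32.1 and 39.5 CPM in mutants, with mutant A below every control.

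Some libraries of this stage stood apart for several of the genes together. The number in the column names paired 4 mutants with 4 controls, and in the pair of number 7 (control B and mutant D) the summed dissociation response was 2918 and 3739 CPM, against 188 to 480 CPM in the other E11.5 libraries. Within their groups those 2 libraries had the highest Ror1, Ror2, Vangl2 and Wnt5a. Without both, the difference of Ror2 was -0.33 (SE 0.30) and that of Ror1 0.20 (SE 0.27), an alternative chosen after the data were seen. Mutant A had the lowest Ror1, Ror2, Vangl2, Celsr1, Celsr2, Prickle1 and Prickle2 of the 4 mutants, with a summed mesenchyme marker level of 496 CPM against 1203 to 2808 CPM in the other 8 libraries and a summed epithelial marker level of 753 CPM against 254 to 445 CPM, and the part of this mixture in the values was not tested. Without mutant A, Ror2 differed by -0.18 (SE 0.39), Ror1 by 0.37 (SE 0.25) and Vangl2 by 0.26 (SE 0.17), none past either threshold. Taken in pairs, Ror2 was lower in the mutant in 3 of 4 pairs, as were Wnt5a, Celsr1, Vangl1 and Prickle2, and Ror1, Ryk, Vangl2 and Dvl1 were higher in 3 of 4.

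**Figure D3:**
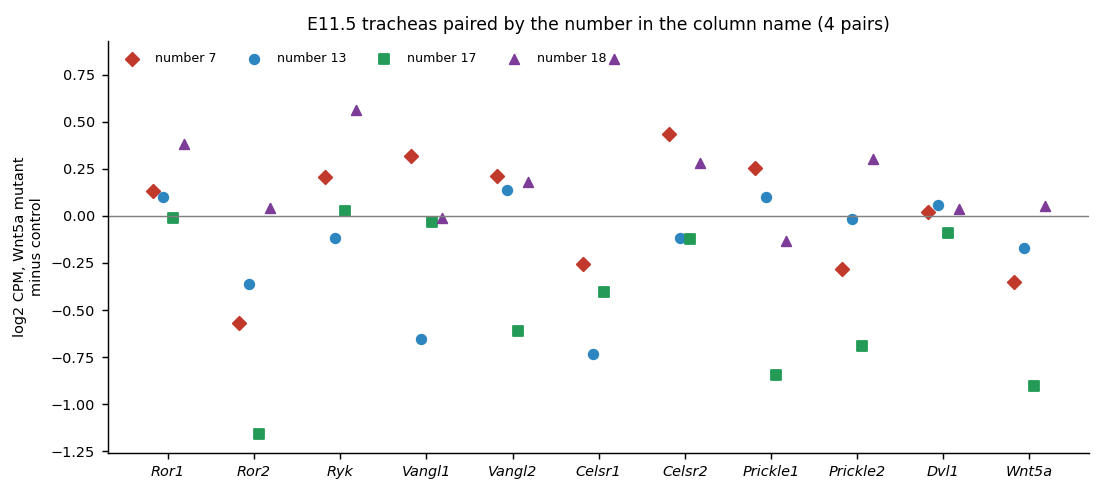
Difference of log2 CPM between mutant and control for the 4 pairs of E11.5 libraries that share a number in their column names, for the 10 genes and Wnt5a, with 1 symbol per pair. Points lay on both sides of 0 for every gene, and Ror2 and Wnt5a were below 0 in 3 of 4 pairs.

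The other genes of the branch were read in the same way. Of the 4 ligands and 11 calcium effectors tested, 0 passed the study's thresholds, and of 16 other planar polarity genes 1 did, Intu, a ciliary and polarity effector (-1.26, SE 0.56, adjusted p = 0.9996). The 2 genes past the adjusted threshold in this comparison were Myog and Myod1, regulators of skeletal muscle and named here after their values were seen, and the summed skeletal muscle markers were 287 to 458 CPM in mutants and 117 to 369 CPM in controls.

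In Notum mutant chondroblasts the 10 genes stood apart from controls about as often as genes at large. Dvl1, Vangl2 and Celsr1 were higher than in control chondroblasts in every library, 3 of the 10, where 33.6% of all genes did not overlap. Celsr1 met the filter for testing only through the mutant libraries, which favoured that direction. An adjusted p under 0.05 was reached by 0 of the 10 genes, as by 0% of all genes, with 1762 of 14120 genes at an unadjusted p under 0.05. DESeq2 put 526 genes past the adjusted threshold and limma voom 5, none of them among the 10. At the study's thresholds 1 of the 10, Dvl1, passed, where 8.41% of all genes passed. The median log2 difference was 0.28 for the 10 genes and 0.02 for all genes tested.

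Dvl1 was at 23.1, 21.8 and 17.1 CPM in mutants A to C and 12.5 and 13.6 CPM in controls A and B, and all 3 mutants were above both controls. The log2 difference was 0.67 (SE 0.26, unadjusted p = 0.0376, adjusted p = 0.374), a 1.60-fold higher level. Without mutant A, mutant B or control A the unadjusted p rose to 0.149, 0.106 or 0.0729. Vangl2 was at 75.2, 64.1 and 57.7 CPM in mutants and 54.7 and 45.3 CPM in controls. Its libraries did not overlap either, and its difference was 0.41 (SE 0.18, unadjusted p = 0.0580, adjusted p = 0.410). Celsr1 was at 3.16, 3.88 and 2.62 CPM in mutants and 1.63 and 0.673 CPM in controls, again without overlap, and its difference was 1.48 (SE 0.71, unadjusted p = 0.0796, adjusted p = 0.445). Control B rested on 9 counts of Celsr1, and without it the difference was 0.98.

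The remaining genes overlapped between the groups. Celsr2 was at 5.71, 8.54 and 5.82 CPM in mutants and 6.85 and 0.0747 CPM in controls, where control B held 1 count and control A lay within the mutants, so its difference of 0.97 (SE 1.26) rested on control B and was -0.03 without it. Ror2 was at 52.3, 66.1 and 30.4 CPM in mutants and 25.4 and 49.5 CPM in controls (0.41, SE 0.42). Ror1 was at 57.7, 77.2 and 46.7 CPM and 40.1 and 69.1 CPM (0.16, SE 0.31). These 2 receptors ranked the mutant libraries in the same order, with mutant B highest and mutant C lowest. Ryk, Vangl1, Prickle1 and Prickle2 differed by -0.14 to 0.10 on the log2 scale.

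The 2 control chondroblast libraries carried different dates in their column names, and all 3 mutants carried the later of the 2. With the date as a term, which leaves control B alone against the mutants, 2604 genes passed the adjusted threshold, of which 1 was among the 10 (Celsr2, through the single count of control B). Dvl1 then differed by 0.59 (SE 0.29, unadjusted p = 0.0848) and was no longer past the study's thresholds, whereas Celsr1 differed by 2.24 (unadjusted p = 0.0177) and passed them, and Vangl2 differed by 0.52 (unadjusted p = 0.0332) with a fold change under 1.5. Control A also had a summed red cell marker level of 66100 CPM, against 5370 to 8369 CPM in the other 4 chondroblast libraries, and the summed macrophage markers were 279 to 392.3 CPM in the mutants and 203 and 114 CPM in controls A and B. The summed mesenchyme markers were 4999 to 7202 CPM in mutants and 9191 and 10152 CPM in controls, and the cartilage markers 3075 to 3837 CPM and 2415 and 2662 CPM, without overlap in either, and 3 of 8 genes of the dissociation response were lower in mutants at the study's thresholds. The part of any of these in the result was not tested. Among the other genes of the branch, of which none passed the adjustment, Fzd3, a Frizzled receptor of the core, was higher by 0.67 (SE 0.15, adjusted p = 0.256) and Scrib, an apical-basal and planar polarity scaffold, by 1.15 (SE 0.47). Plcb1, a phospholipase C, was higher by 0.81 (SE 0.29), and Nfatc4 differed by 0.38 (SE 0.15), a fold change under 1.5. Of 16 other planar polarity genes 2 were higher and 0 lower at the study's thresholds, of 11 calcium effectors 1 and 0, and of 4 ligands 1 and 0. That ligand was Wnt4, at 1.53, 1.82 and 0.839 CPM in mutants and 0.153 and 0 CPM in controls. It met the filter for testing only through the mutants, which favoured a higher level there.

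Between control tracheas at E11.5 and control chondroblasts at E13.5, 3 of the 10 genes passed the adjusted threshold, Ror1 and Prickle1 higher and Celsr1 lower in the later cells, where 12.5% of all genes passed. The same 3 passed the study's thresholds, where 26.1% of all genes did. Celsr1 met the filter for testing only through the E11.5 libraries, which favoured a lower level in the chondroblasts. Libraries did not overlap for 7 of the 10 genes, where 35.6% of all genes did not. This comparison sets whole tracheas against sorted cells, so stage, cell composition and the sort cannot be told apart. The summed epithelial markers were 254 to 434 CPM in the first and 32.0 to 32.9 CPM in the second. The summed dissociation response was 4516 and 3173 CPM in control chondroblasts A and B. In E11.5 controls A, C, D and E it was 241 to 480 CPM, and in control B 2918 CPM. At the study's thresholds 3 of its 8 genes were higher in chondroblasts and 0 lower, and its part was not tested. These control libraries are also those of the comparisons with the mutants and the sorted cells. The median log2 difference was 0.36 for the 10 genes and -0.05 for all genes tested.

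Ror1 was at 14.1, 24.6, 18.7, 13.1 and 13.6 CPM in the 5 E11.5 controls and 40.1 and 69.1 CPM in control chondroblasts. Both chondroblast libraries were above every E11.5 control, by 1.68 on the log2 scale (SE 0.28, adjusted p = 0.0082), a 3.20-fold higher level. It passed the adjusted threshold in 14 of 15 alternatives, with log2 differences of 1.22 to 1.99, and lost it without chondroblast B (1.22, adjusted p = 0.0693). Celsr1 was at 8.78, 8.12, 7.76, 5.42 and 6.94 CPM at E11.5 and 1.63 and 0.673 CPM in chondroblasts, with no overlap and a log2 difference of -2.68 (SE 0.51, adjusted p = 0.0136), a 6.41-fold lower level. It passed in 14 of 15 alternatives, and with all 18 libraries in 1 fit its adjusted p was 0.0706. Prickle1 was at 31.5, 33.2, 35.2, 34.3 and 24.2 CPM at E11.5 and 58.1 and 50 CPM in chondroblasts, again with no overlap, and rose by 0.74 (SE 0.18, adjusted p = 0.0324). It passed in 6 of 15 alternatives. The call was lost without either chondroblast library and without E11.5 control A, C or D, with adjusted p-values of 0.0503 to 0.0914, and under 4 other settings, with adjusted p-values of 0.0596 to 0.311.

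The partners of these genes did not pass the adjustment. Prickle2 was at 18.7, 31.7, 22.3, 20.8 and 16.8 CPM at E11.5 and 33.00 and 33.3 CPM in chondroblasts, higher in both by 0.57 (SE 0.24, unadjusted p = 0.0409, adjusted p = 0.147). Vangl2 was lower in both chondroblast libraries than in every E11.5 control, by -0.50 (SE 0.19, unadjusted p = 0.0277, adjusted p = 0.116). Ror2, in contrast to Ror1, overlapped between the stages and differed by 0.44 (SE 0.44, adjusted p = 0.543). Ryk, Dvl1, Vangl1 and Celsr2 differed by 0.39, 0.33, -0.14 and -0.81, with adjusted p-values of 0.292 to 0.772. Among the ligands of the branch, Wnt5a was higher in the chondroblasts by 1.29 (SE 0.29, adjusted p = 0.0242), Wnt5b higher by 1.70 (SE 0.43, adjusted p = 0.0373) and Wnt4 lower (adjusted p = 0.0163), the last at 6.22, 4.13, 3.96, 11.98 and 25.7 CPM in E11.5 controls and 0.153 and 0 CPM in chondroblasts. Wnt4 met the filter for testing only through the E11.5 controls, which favoured that direction. Nfatc1, a calcineurin target, rose by 2.12 (SE 0.28, adjusted p = 0.0031), and Gpc4, a glypican co-receptor for Wnts, by 1.11 (SE 0.25, adjusted p = 0.0260). At the study's thresholds only, Nfatc4 rose by 0.85 (SE 0.27), and Ankrd6, the vertebrate Diego homologue (-1.30, SE 0.43), Intu (-1.96, SE 0.85) and Plcb1, a phospholipase C (-0.998, SE 0.337), were lower. Of 16 other planar polarity genes 1 rose and 0 fell by the adjusted threshold, of 11 calcium effectors 1 and 0, and of 4 ligands 2 and 1.

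Read in order of group means, the levels placed the groups differently for each gene. Ror1 was highest in mutant and control chondroblasts and muscle, whose libraries overlapped from 1 to the next, and lower in epithelium and both E11.5 groups, which overlapped too, with a gap only between muscle and epithelium. Ror2 was highest in muscle with a gap to mutant chondroblasts, then ran through control chondroblasts, E11.5 controls and E11.5 mutants with overlap at each step, and reached epithelium after a second gap. Ryk had the flattest profile, from 16.8 CPM in E11.5 controls to 29.3 CPM in muscle. Vangl2 ran from 74.9 CPM in E11.5 mutants to 25.05 CPM in muscle and Vangl1 from 22.5 CPM in the same E11.5 mutants to 11.7 CPM in muscle. Celsr1 and Celsr2 shared epithelium at the top and both E11.5 groups in the middle, and differed at the bottom, with control chondroblasts lowest for Celsr1 (1.15 CPM) and muscle lowest for Celsr2 (1.24 CPM).

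**Figure D4:**
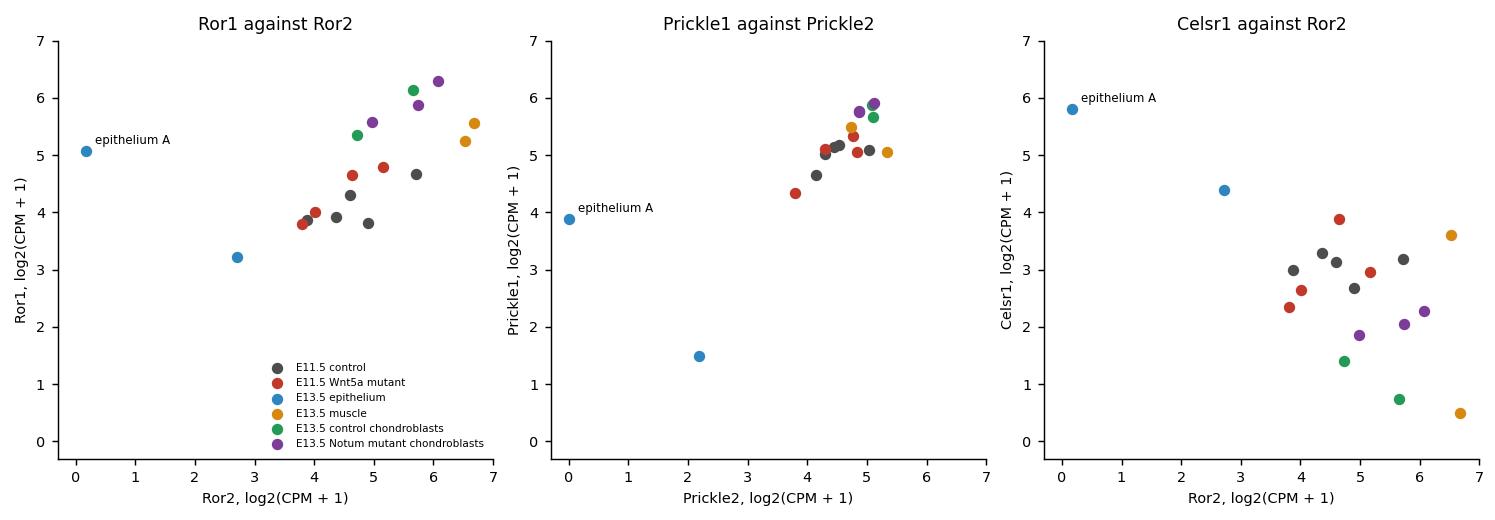
Level of 1 gene against another in each of the 18 libraries as log2(CPM + 1), for Ror1 against Ror2, Prickle1 against Prickle2 and Celsr1 against Ror2, with points coloured by group. Epithelium A lies away from the other libraries for Ror1 and Ror2, where the correlation was 0.37 with it and 0.81 without it.

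Correlations of log2 CPM between the 10 genes across the 18 libraries are given as a description, since libraries of a group share tissue and epithelium A bears on many of the values. Ror2, Prickle1 and Prickle2 varied together, with r = 0.57 for Ror2 and Prickle1, 0.95 for Ror2 and Prickle2 and 0.58 for the 2 Prickle genes over 18 libraries. Over the 17 libraries without epithelium A these were 0.69, 0.82 and 0.93. Ror1 and Ror2 had r = 0.37 over 18 libraries and 0.81 over 17. Celsr1 and Celsr2 correlated with each other (0.61, and 0.55 without epithelium A) and inversely with Ror2 (-0.67 and -0.58, and -0.50 and -0.60 without it). Dvl1 and Ror2 had r = 0.88 over 18 libraries and 0.51 over 17. Dvl1 and Vangl2 had 0.09 over 18 and -0.67 over 17.

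The genes with profiles most like each member were sought among 14649 genes with a mean of at least 1 CPM over the 18 libraries. Tbx2 was closest to Ror1 (r = 0.97, and 0.98 without epithelium A), followed by Numbl and Ptpdc1. Col13a1, Cerk and Itga5 were closest to Ror2 (0.98, 0.98 and 0.97, and 0.93, 0.92 and 0.91 without it). Irf2bp2, Ehbp1 and Gnptab were closest to Ryk (0.86, 0.85 and 0.84), which with Vangl1 had the loosest neighbours. Vangl1 was closest to Nhlrc2, Spag4 and Armc2 (0.84, 0.84 and 0.83) and Vangl2 to Dlg2, Pold1 and Lrrtm2 (0.88, 0.87 and 0.87). Celsr1 was closest to Catsperd, Eps8l2 and Fam169a (0.92, 0.92 and 0.90) and Celsr2 to Nt5dc1, Gcnt2 and Rbm47 (0.94, 0.94 and 0.93). Prickle1 was closest to Adgra2, Mex3b and Pkdcc (0.95, 0.93 and 0.93). Prickle2 was closest to Magee1, Art4 and Eng (0.99, 0.98 and 0.98), and Dvl1 to Foxj2, Fbxl4 and Gpr137 (0.97 for the first). For these last 2 members the values without epithelium A were 0.90, 0.90 and 0.89 for Prickle2 and 0.80, 0.78 and 0.79 for Dvl1.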

How the data were processed

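RNA was measured with the SMART-Seq v4 and Nextera XT kits, which mark neither strand nor molecules, in 18 libraries, out of 22 samples that the labels name, and 4 further columns that matched no labelled group were not used. The labels name 3 samples each of epithelium, muscle and control chondroblasts and 4 of Notum mutant chondroblasts. Of these, 2, 2, 2 and 3 had a column used here. The study's own Notum comparison had 3 controls and 4 mutants. The deposited table held expected counts, which the authors estimated per transcript entry (47248 entries, 26202 symbols, 53.4% of values not whole). Partek, limma and mm10 are named in the submitters' processing notes and DESeq2 in the study's methods, with no order of steps and no version. Entries of a symbol were summed and rounded here. A gene was tested when over 50% of a group's libraries had 1 CPM or more of it. Groups were compared with the quasi-likelihood test of edgeR 4.0.16 in R 4.3.3 with TMM scaling, two-sided, with Benjamini-Hochberg adjustment over all genes tested, and standard errors were taken from its F statistic. Calls used an adjusted p under 0.05, or the study's thresholds of an unadjusted p under 0.05 and a fold change over 1.5. The study also asked for an FPKM over 1 in over 50% of the replicates of a condition. FPKM was not computed here, and the CPM filter does not account for transcript length. Low genes with long transcripts that are called here may therefore fail the study's full rule. Levels are CPM with TMM factors over all 18 libraries. The test was checked on simulated counts with 1 fixed spread, which was below that of these data. The fitted spread between libraries was 66.8% for the sorted control populations and 34.0 to 38.9% for the other fits. The check therefore does not cover the wider spread of the sorted populations.

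DESeq2 1.42.0, limma 3.58.1 (voom), other scalings and filters, leaving out each library, and a date term were tried as alternatives. At E11.5 the column numbers were taken to pair mutants with controls. The deviations of same-numbered libraries correlated by 0.10 to 0.53 in 4 of 4 pairs, and those of libraries with different numbers by -0.32 to 0.22. Mutant A correlated more with control E (0.22) than with control D of its own number (0.14). Only the pair of number 7 lay above the range of different numbers, so the pairing is weakly supported for the others. The labels do not say what the number stands for. Libraries are lettered in table order within a group. The column names of epithelium B and Notum mutant C lack a minus sign after a label, and were assigned from the rest of the name, with marker levels that matched the group. The 10 genes were taken by name, and the other named genes were the targeted genes, 6 sort markers, up to 3 genes per direction of each pathway list with the smallest unadjusted p under 0.05 in a comparison, and the 3 genes whose log2 CPM correlated best with each of the 10. The members and lists were chosen with earlier results of these data known. 1 further list of pathway genes is not reported here.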

Additional observations from a re-analysis of the deposited data

How the results depend on the processing

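Each result was recomputed under 14 to 19 alternatives, changing 1 choice at a time. In the comparison of Wnt5a mutants 0 of the 10 genes passed either threshold under every alternative. The column number as a replicate block changed no call there, left 1 gene past the adjusted threshold instead of 2, and gave Ror2 -0.52. The sorted columns share no replicate number but share 2 dates, and the date as a block changed no count of the 10 genes in the 4 comparisons of control populations, where deviations of same-date libraries correlated by -0.047 to 0.10. The number of the 10 past the adjusted threshold rose from 0 to 1 with the date term for Notum mutants (0 to 1 over libraries left out in turn). For epithelium it rose from 0 to 4 with DESeq2, 4 without a filter and 4 with 18 libraries in 1 fit against chondroblasts (0 to 3 leaving out libraries), to 2, 3 and 4 against muscle (0 to 3), and to 4, 4 and 5 against the mean of both (0 to 3). For the stages it fell from 3 to 1 with 18 libraries in 1 fit and was 1 to 3 leaving out libraries. At the study's thresholds, for Notum mutants 1 became 0 without a filter, 0 with 18 libraries and 2 with the date term (0 to 2 leaving out libraries), and for chondroblasts against muscle 0 became 1 with DESeq2, 2 without a filter, 1 with voom and 2 with 18 libraries (0 to 2). For epithelium against muscle 3 became 5, 5, 6 and 5 under the same settings (1 to 4). Leaving out libraries gave 0 to 5 against chondroblasts, 3 to 5 against the mean and 3 to 5 for the stages. Of 1080 values of single genes 67 changed sign, none of them of a gene with an unadjusted p under 0.05. For Wnt5a mutants these were Vangl2 with the block (-0.026), Ryk and Dvl1 by the largest entry (-0.16 and 0.14), Vangl1, Celsr1, Prickle1 and Dvl1 by library size only (0.042, 0.066, 0.0016 and 0.0098), Vangl1, Celsr1 and Dvl1 without a filter (0.026, 0.021 and 0.0027), and, without the pair of number 7, Vangl2, Celsr1 and Celsr2 (-0.026, 0.064 and -0.030). For Notum mutants they were Ror1, Ror2, Ryk and Vangl1 with the date term (-0.20, -0.0071, -0.12 and -0.27) and Ryk with 18 libraries (-0.012) and by the largest entry (-0.11), and for chondroblasts against muscle Celsr2 with voom (-0.20) and Prickle2 with a minimum of 10 counts (-0.0025). Leaving out 1 library in turn gave, for Wnt5a mutants, Celsr1 -0.49 to 0.19, Celsr2 -0.14 to 0.13, Dvl1 -0.12 to 0.027, Prickle1 -0.17 to 0.11, Prickle2 -0.23 to 0.092, Vangl1 -0.095 to 0.18 and Vangl2 -0.11 to 0.26. For Notum mutants it gave Celsr2 -0.025 to 6.36, Prickle1 -0.059 to 0.15, Ror1 -0.20 to 0.60, Ror2 -0.00165 to 0.97, Ryk -0.12 to 0.13 and Vangl1 -0.26 to 0.56. For chondroblasts against muscle it gave Celsr1 -3.29 to 1.44, Celsr2 -3.94 to 2.42, Prickle2 -0.28 to 0.36, Ror1 -0.10 to 0.71 and Ryk -0.71 to 0.013, and for the stages Celsr2 -6.23 to 0.15, Ror2 -0.13 to 0.80 and Vangl1 -0.60 to 0.19. For epithelium it gave, against chondroblasts, Dvl1 -6.55 to 0.49, Ryk -1.06 to 0.38, Vangl1 -1.21 to 0.53 and Vangl2 -0.68 to 0.0087, against muscle Vangl1 -0.41 to 1.33, and against the mean Ryk -1.26 to 0.18, Vangl1 -0.81 to 0.93 and Vangl2 -0.19 to 0.49. The cause of these changes was not tested. Over all genes, DESeq2 called 40, 526, 1554, 1827, 255, 2035 and 3493 genes past the adjusted threshold in the 7 comparisons, in the order Wnt5a mutants, Notum mutants, epithelium against chondroblasts, against muscle, chondroblasts against muscle, epithelium against the mean, and stages, where edgeR called 2, 0, 375, 490, 18, 704 and 1835. With 18 libraries in 1 fit these were 0, 9, 2961, 3576, 532, 3898 and 1573, and without a filter 9, 42, 1463, 1620, 305, 1928 and 1497. At the study's thresholds library size only turned 175 higher and 371 lower genes into 219 and 307 for Wnt5a mutants, and 778 and 410 into 1034 and 309 for Notum mutants, with the median of all genes at 0.11, and it put the median at -0.12 for the stages. Without a filter the medians were 0.17 for Notum mutants, -0.17 and -0.26 for epithelium against muscle and the mean, and -0.47 for the stages. With 2 libraries in most sorted groups and 0 to 9 counts behind some values, sizes of the lowest genes are poorly fixed.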

Other observations

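The share of a gene's counts that the table gave to each of its transcript entries varied widely between libraries for some of the 10 genes, in libraries with at least 20 counts of the gene. Of the 3 Ryk entries the third held 59.3% of all counts, from 0.0280% in epithelium A to 91.7% in E11.5 control E. For Celsr2 the first of 2 entries held 68.0%, from 14.7% in muscle A to 96.5% in E11.5 control E over 16 libraries, and for Prickle2 the second of 4 held 22.6%, from 2.16% in Wnt5a mutant B to 77.9% in muscle B over 17 libraries. Ror1 gave 99.6% of its counts to its second entry, with a lowest value of 90.4% in E11.5 control E, and Dvl1 gave 93.1%, from 63.8% in E11.5 control E to 99.2% in Wnt5a mutant B. How the reads were divided between transcripts of a gene is not given in the sources used here.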
